A study of Mus musculus with 12 samples.

Results

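Interferon-stimulated genes are the genes that a cell switches on when interferon reaches its receptors, and 38 of them were followed here through mouse T-cell lymphomas of a MYC model. A listed gene was measured by the probe set that names it alone, and where several did, by the one with the highest mean over all 12 arrays. That left 37 of the 38 genes, out of 19309 genes measured in the series. Irgm2 was skipped because its probe set is shared with Igtp. The members include transcription factors of the response, sensors of foreign nucleic acid, enzymes and binding proteins that act on viral RNA, and regulators that tune or end the response.

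Type I interferons bind the receptor pair IFNAR1 and IFNAR2, whose kinases JAK1 and TYK2 pass the signal on by phosphorylation. The complex ISGF3, to which STAT2 and IRF9 belong, then binds the interferon-stimulated response element (ISRE) in the promoters of target genes. Type II interferon signals through IFNGR1 and IFNGR2 and acts on a different element, the gamma-activated sequence (GAS). T cells keep a low, tonic level of these transcripts without infection. Several induced genes encode factors of the pathway itself, so that the response feeds back on its own components.

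Total RNA of the thymus of FVB/N mice was hybridised to single-channel whole-transcript arrays, and the values are log2 expression, on which a difference of 1 is a 2-fold change. The groups were 4 tumors of genotype Dnmt3a-deficient and 5 control tumors, whose genotype label reads wild type, and 3 preparations of non-tumor thymocytes, also wild type. Dnmt3a encodes a de novo DNA methyltransferase, and the study's text says that it was removed from blood-forming cells of mice in which MYC was present. The labels of the control tumors do not name MYC. The age label was "Terminal" for tumors and "24 dpn" for normal thymocytes, so age and tumor state cannot be told apart. Which promoter drove MYC, how Dnmt3a was removed and whether arrays came from separate animals are not given in the labels, and p-values measure the spread between these arrays, which may be technical.

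The targeted gene followed the labels. Dnmt3a read 7.33, 7.62, 7.19 and 7.53 in Dnmt3a-deficient tumors, against 8.58, 8.52, 8.48, 8.19 and 9.57 in control tumors and 9.63, 9.48 and 9.33 in normal thymocytes. No Dnmt3a-deficient tumor overlapped with a control tumor, and the log2 difference between these groups was -1.25 (SE 0.23, adjusted p = 0.0317). The 10 T lineage genes checked (Cd3e, Cd3d, Cd3g, Cd4, Cd8a, Cd8b1, Thy1, Cd2, Cd5 and Cd7) averaged 9.77 to 10.41 per array in Dnmt3a-deficient tumors, 9.95 to 10.80 in control tumors and 11.46 to 11.56 in normal thymocytes. Of the 10, 5 had a higher and 5 a lower mean in Dnmt3a-deficient than in control tumors. There limma called 0, with 0 higher and 5 lower at an unadjusted p below 0.05. Over all genes those shares were 12.6% and 7.58%. In bulk tissue fewer cells of a type and less RNA per cell cannot be told apart. Some arrays stood apart. The 75th percentile of an array's values was 8.50 to 8.60 for a set of 6 arrays, all Dnmt3a-deficient tumors with control tumors 1 and 2, while elsewhere it lay between 8.13 and 8.30. Over all genes control tumors 1 and 2 correlated better with Dnmt3a-deficient tumors (mean r 0.972 and 0.971) than with the other control tumors (0.956 and 0.951). Control tumors 3 and 4 carried more neutrophil transcripts than any other array. Counts of members in the comparisons with control tumors are given with and without each pair. Most other results, among them single genes, other gene lists and the promoter split, are given with all arrays only.

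Taken as one set, the members lay near the normal level in Dnmt3a-deficient tumors and below it in control tumors. After the mean of normal thymocytes was subtracted gene by gene, the 37 members averaged 0.22, -0.21, -0.12 and 0.16 on the arrays of Dnmt3a-deficient tumors, against -0.59, -0.42, -0.85, -0.89 and -0.67 in control tumors and 0.08, -0.08 and 0.0 in normal thymocytes. The Dnmt3a-deficient tumors all lay above all control tumors and on both sides of the normal arrays. The average over all 19309 genes moved far less, by 0.05 in Dnmt3a-deficient tumors and 0.02 in control tumors.

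**Figure D1:**
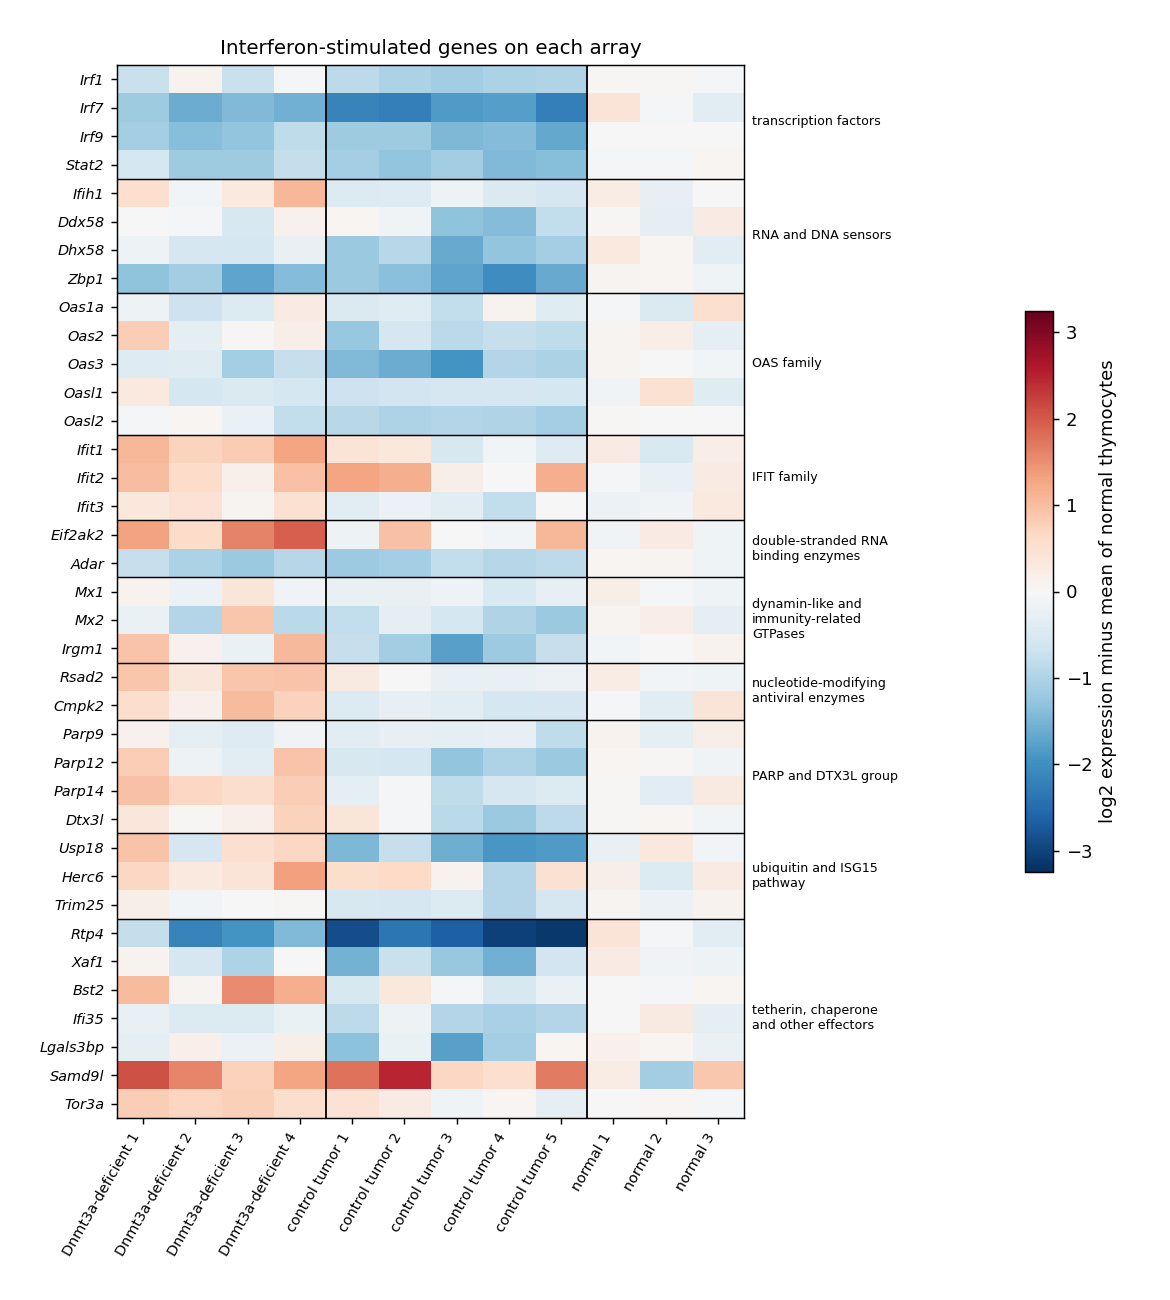
Log2 expression of each of the 37 interferon-stimulated genes (down the page, ordered by role) on each of the 12 arrays (across), as the difference from that gene's mean over normal thymocytes; red is higher and blue lower. Control tumors are mostly blue, while Dnmt3a-deficient tumors show red (Ifit1, Eif2ak2, Bst2) beside blue (Irf7, Irf9, Zbp1, Rtp4). Samd9l is red in both tumor groups, and the blue genes named are blue in both.

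Between the tumor groups, 34 of the 37 members had a higher mean in Dnmt3a-deficient than in control tumors, and the median log2 difference was 0.68. Over all genes tested 48.5% were higher and the median was -0.01. In limma's fit over all genes, with Benjamini-Hochberg adjustment over 19309 genes and a threshold of 0.05, 8 members rose (Usp18, Irgm1, Parp14, Cmpk2, Oas2, Rsad2, Dhx58 and Trim25), against a background of 0.59% of all genes. No member fell, against 0.228% of all genes, and none had an unadjusted p below 0.05 in that direction, while 26 had one in the higher direction. Over all genes 12.6% had such a p in the higher and 7.58% in the lower direction. For 17 members every Dnmt3a-deficient tumor lay above every control tumor, against 3.8% of all genes. These 17 were the 8 above with Irf1, Irf7, Ifih1, Oasl2, Ifit1, Ifit3, Parp12, Rtp4 and Tor3a.

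The number of members called between tumors turned on single arrays. Oas2, Dhx58 and Trim25 passed at an adjusted p = 0.0477, and Oasl2, Parp12 and Rtp4 missed at 0.0539, 0.0551 and 0.0582. The number of genes called over the whole array moved as well. The count of members was 1 without Dnmt3a-deficient tumor 4 or control tumor 3, 2 without Dnmt3a-deficient tumor 3 or control tumor 4, 3 without Dnmt3a-deficient tumor 1 and 4 without control tumor 5, where 0.057% to 0.435% of all genes were called higher. It was 10 without Dnmt3a-deficient tumor 2 (0.539% of all genes called higher), 16 without control tumor 1 (4.08%) and 18 without control tumor 2 (5.71%). Without control tumors 1 and 2 it was 21 (16.1% of all genes). Without control tumors 3 and 4 it was 0, with 19 members higher and 1 lower (Ifit2) at an unadjusted p below 0.05 and a median of 0.57. In that last fit 6 genes of the whole array were called. A fit of the 2 tumor groups alone also called 0 members, with 26 at an unadjusted p below 0.05, and called 1 gene in all. The direction moved less, since 34 to 37 of the 37 members were higher in Dnmt3a-deficient tumors in every fit that kept all members. The call held in 16 of 19 alternative fits for Parp14, in 14 for Irgm1 and in 13 for Usp18. With control tumors 1 and 2 left out, 22 members did not overlap between the tumor groups (19.3% of all genes). With control tumors 3 and 4 left out, 19 did so in the higher direction (5.3%) and 1 in the lower (4.23%).

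Against normal thymocytes the Dnmt3a-deficient tumors split the members. Of the 37 members 8 rose (Samd9l, Eif2ak2, Ifit1, Bst2, Rsad2, Parp14, Tor3a and Cmpk2), beside 18.7% of all genes, and 7 fell (Rtp4, Irf7, Zbp1, Irf9, Adar, Stat2 and Oas3), beside 19% of all genes. The median log2 difference of the 37 members was 0.03, and that of all genes was -0.10. All 4 tumors lay above all 3 normal arrays for 7 members (23% of all genes) and below them for 7 (26.7%). These counts are near the background share in both directions. Without normal array 2 the number that rose was 3 (15.5% of all genes). Without normal array 1 or Dnmt3a-deficient tumor 4 it was 5 (16.3% in either fit). After removing the dimmest 50% of genes it was 4 of the 23 members left, where 35.6% of the genes left rose.

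Control tumors were mostly lower than normal thymocytes. Of the 37 members 17 fell, beside 11.3% of all genes, and 1 rose (Samd9l), beside 13% of all genes. The median log2 difference was -0.71, against -0.08 over all genes. For 19 members all 5 control tumors lay below all normal arrays, against 14% of all genes. Such members numbered 24 without control tumors 1 and 2 (22% of all genes) and 20 without control tumors 3 and 4 (19.3%). The number that fell was 20 without control tumors 1 and 2 (12.5% of all genes) and 14 without control tumors 3 and 4 (10.6%). The comparisons share arrays, so their values for a gene are set side by side below and not counted against each other.

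**Figure D2:**
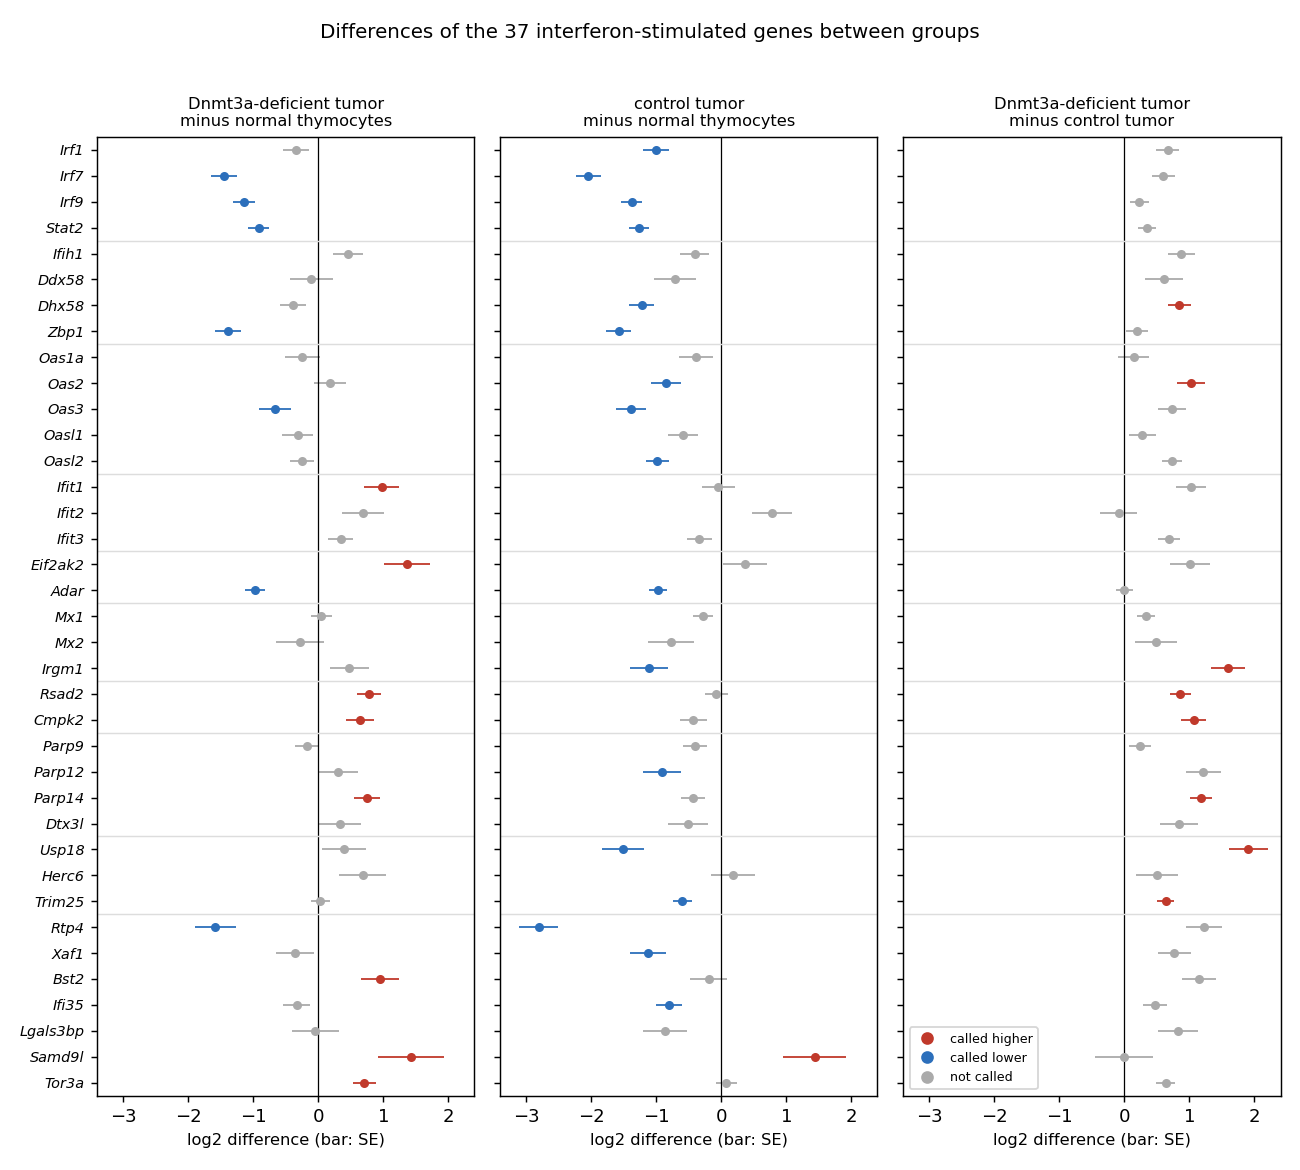
Log2 difference of each member with its SE (bars) for Dnmt3a-deficient tumors minus normal thymocytes (left), control tumors minus normal thymocytes (middle) and Dnmt3a-deficient minus control tumors (right); red and blue mark members called higher and lower at an adjusted p under 0.05, grey those not called. The left panel has 8 red and 7 blue points, the middle 1 red and 17 blue, and the right 8 red and none blue.

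The promoters of the members were read from RefSeq for build GRCm38.p6, the C57BL/6J reference and not the FVB/N genome of these mice, as 250 bases before and 50 after the annotated start. Of the 37 members 27 had an entry. Dhx58, Mx1, Mx2, Oas2, Parp14, Parp9, Rtp4, Tor3a, Usp18 and Zbp1 had none in that table. The ISRE core, spelled GAAANNGAAA and searched on both strands, was found in 11 of the 27 promoters (40.7%) and in 1079 of the 27025 genes with an entry (3.99%). Counting the 250 bases before the start alone, it was found in 8 members (29.6%) and in 3.46% of all genes. The GAS core, spelled TTCNNNGAA, which is its own reverse complement, was found in 7 members (25.9%) and in 9.55% of all genes. The 11 members with an ISRE core were Stat2, Ifih1, Ddx58, Oas1a, Oas3, Ifit1, Ifit3, Eif2ak2, Irgm1, Rsad2 and Bst2. A match is a run of letters and not evidence of binding, and promoters without one may hold other forms of the element.

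The sequences below belong to 6 of the 7 members that had an ISRE core and were called in a comparison (Bst2 is the other), shown so that the element can be seen in its setting, with capitals marking the core. A core on the opposite strand reads TTTC, any 2 bases, TTTC. The first 4 are stretches around the core: Eif2ak2 (chr17:78882535-78882564, minus strand, 30 bases, core starting 19 bases after the start), Ifit1 (chr19:34640760-34640838, plus strand), Oas3 (chr5:120777700-120777759, minus strand) and Stat2 (chr10:128270251-128270310, plus strand).
Eif2ak2: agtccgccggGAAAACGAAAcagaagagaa
Ifit1: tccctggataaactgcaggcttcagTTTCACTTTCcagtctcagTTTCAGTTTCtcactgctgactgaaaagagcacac
Oas3: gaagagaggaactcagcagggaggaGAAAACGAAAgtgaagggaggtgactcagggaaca
Stat2: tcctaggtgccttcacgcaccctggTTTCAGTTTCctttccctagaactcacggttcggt
Irgm1 and Rsad2 rose between the tumor groups, and the 250 bases before their starts are given whole. Irgm1 (chr11:48871421-48871670, minus strand) holds 2 cores that overlap, at -30 and -24, printed as 1 run of capitals. In Rsad2 (chr12:26456453-26456702, minus strand) the core begins at -120. Lgals3bp (chr11:118401960-118402209, minus strand), which was called in none of the 3 comparisons, has no match to this spelling and is shown for comparison. Its last bases read gaaaatcgaaactaggt, which holds a similar run with a longer gap, so it is not shown to lack the element.
Irgm1: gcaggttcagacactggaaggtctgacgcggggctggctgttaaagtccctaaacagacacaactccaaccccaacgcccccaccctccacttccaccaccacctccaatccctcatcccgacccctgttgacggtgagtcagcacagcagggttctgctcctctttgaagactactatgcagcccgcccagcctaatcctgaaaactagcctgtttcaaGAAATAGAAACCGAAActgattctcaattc
Rsad2: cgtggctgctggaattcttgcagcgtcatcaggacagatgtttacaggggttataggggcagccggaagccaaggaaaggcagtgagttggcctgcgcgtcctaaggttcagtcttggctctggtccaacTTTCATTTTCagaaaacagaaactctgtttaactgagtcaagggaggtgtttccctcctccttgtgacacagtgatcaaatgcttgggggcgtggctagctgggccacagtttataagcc
Lgals3bp: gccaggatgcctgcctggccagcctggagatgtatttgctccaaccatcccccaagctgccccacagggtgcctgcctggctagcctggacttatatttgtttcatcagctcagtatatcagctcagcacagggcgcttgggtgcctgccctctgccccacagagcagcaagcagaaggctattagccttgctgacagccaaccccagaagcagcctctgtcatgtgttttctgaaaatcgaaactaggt

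Members with and without the ISRE core are compared as a description only. The median log2 difference between Dnmt3a-deficient and control tumors was 0.86 in the 11 with the core and 0.62 in the 16 without. Between Dnmt3a-deficient tumors and normal thymocytes the medians were 0.46 with the core and -0.15 without. Between control tumors and normal thymocytes they were -0.39 with the core and -0.84 without. Both sets held members that rose and members that fell: Eif2ak2 and Stat2, each with a core, moved in opposite directions against normal thymocytes. In Bst2 the 2 ISRE cores at -130 and -124 overlap each other, and the first overlaps a GAS core at -136.

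**Figure D3:**
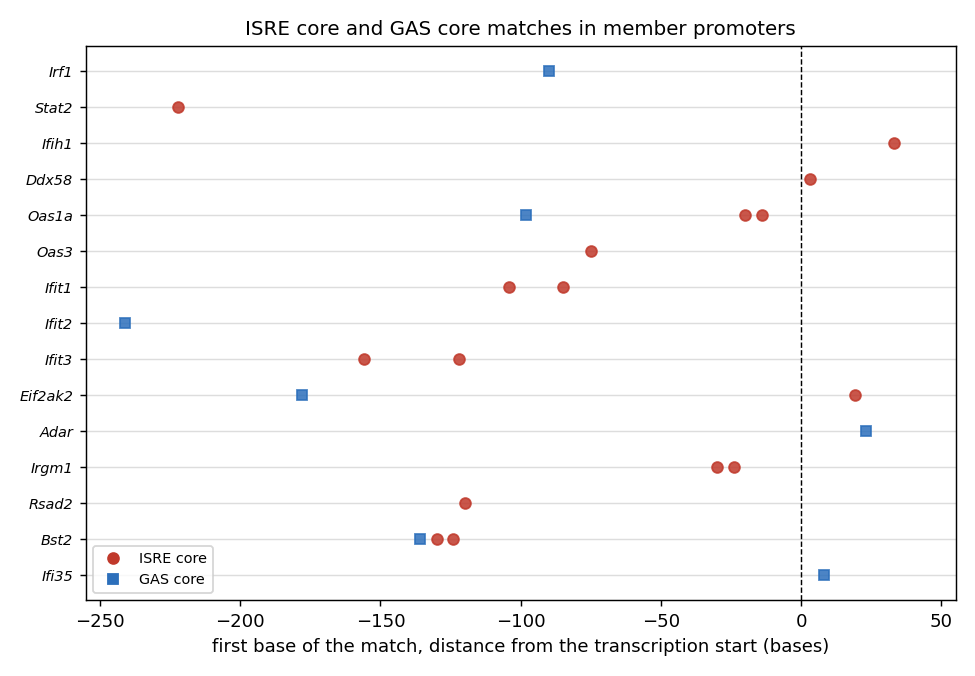
Position of each ISRE core (red circles) and GAS core (blue squares) relative to the annotated transcription start (dashed line) for the members whose RefSeq promoter holds either; the axis counts bases to the first base of the match. Most ISRE cores lie before the start, and those of Ddx58 (3), Eif2ak2 (19) and Ifih1 (33) lie after it.

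Of the 4 transcription factors, Irf7, Irf9 and Stat2 fell in both tumor groups against normal thymocytes. Irf7, which drives the second wave of type I interferon genes, read 7.49, 7.03, 7.21 and 7.08 in Dnmt3a-deficient tumors, against 6.49, 6.43, 6.82, 6.85 and 6.43 in control tumors and 9.08, 8.58 and 8.29 in normal thymocytes. Every tumor was below every normal array, and the Dnmt3a-deficient tumors were above the control tumors without overlap. Its log2 difference from normal thymocytes was -1.45 (SE 0.20, adjusted p = 0.000104) in Dnmt3a-deficient tumors and -2.05 (SE 0.19, adjusted p = 8.71e-06) in control tumors. Irf9, the DNA-binding subunit of ISGF3, read 7.73, 7.44, 7.57 and 8.02 in Dnmt3a-deficient tumors, against 7.68, 7.68, 7.37, 7.42 and 7.17 in control tumors and 8.84, 8.84 and 8.82 in normal thymocytes. Both tumor groups fell, by 1.15 and 1.38 on the log2 scale, and they overlapped with each other. Stat2, another subunit of that complex, read 8.26, 7.70, 7.69 and 8.06 in Dnmt3a-deficient tumors, against 7.74, 7.56, 7.72, 7.41 and 7.46 in control tumors and 8.81, 8.81 and 8.90 in normal thymocytes. It too fell in both, with differences of -0.92 (SE 0.16) and -1.26 (SE 0.16).

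Irf1, which both types of interferon induce, behaved otherwise. Its values were 8.24, 9.08, 8.22 and 8.93 in Dnmt3a-deficient tumors, against 8.11, 7.93, 7.82, 7.93 and 7.97 in control tumors and 9.0, 8.99 and 8.89 in normal thymocytes. Control tumors sat in a narrow band below all other arrays, while Dnmt3a-deficient tumors 2 and 4 were at the normal level and tumors 1 and 3 between the other groups. The log2 difference was -1.01 (SE 0.19, adjusted p = 0.00189) for control tumors and -0.34 (SE 0.20, adjusted p = 0.202) for Dnmt3a-deficient tumors against normal thymocytes, and 0.66 (SE 0.18, adjusted p = 0.0942) between the tumors. A second Irf1 probe set did not follow it, with a log2 difference of -0.06 between the tumor groups (adjusted p = 0.871) and 0.26 between control tumors and normal thymocytes.

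Among the sensors, Dhx58 rose between the tumor groups. This gene encodes LGP2, a helicase that tunes RNA sensing, and its values were 6.84, 6.46, 6.45 and 6.76 in Dnmt3a-deficient tumors, against 5.80, 6.12, 5.38, 5.73 and 5.90 in control tumors and 7.32, 7.08 and 6.64 in normal thymocytes. All Dnmt3a-deficient tumors were above all control tumors, and only the control tumors lay wholly below the normal arrays. The log2 difference was 0.84 (SE 0.18, adjusted p = 0.0477) between the tumors, -1.23 (SE 0.19, adjusted p = 0.000435) for control tumors against normal and -0.38 (SE 0.20, adjusted p = 0.154) for Dnmt3a-deficient tumors against normal. Zbp1, which senses Z-form nucleic acid and can start necroptosis, read 7.22, 7.39, 6.82 and 7.11 in Dnmt3a-deficient tumors, against 7.32, 7.17, 6.81, 6.51 and 6.89 in control tumors and 8.61, 8.58 and 8.37 in normal thymocytes. The tumor groups overlapped and both fell against normal thymocytes, with differences of -1.39 (SE 0.20) in Dnmt3a-deficient and -1.58 (SE 0.19) in control tumors.

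The remaining sensors were not called in any comparison. Ifih1, the gene of the long double-stranded RNA sensor MDA5, ranged 5.22 to 6.40 in Dnmt3a-deficient tumors, 4.76 to 5.14 in control tumors and 5.06 to 5.56 in normal thymocytes. The tumor groups did not overlap, with a log2 difference of 0.87 (SE 0.20, adjusted p = 0.0655). Ddx58, the gene of RIG-I, was at 7.52 to 8.18 in Dnmt3a-deficient tumors, 6.62 to 8.11 in control tumors and 7.73 to 8.31 in normal thymocytes. Its control tumors split, as control tumors 1 and 2 read 8.11 and 7.92 and control tumors 3 to 5 read 6.72, 6.62 and 7.25.

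Active synthetases of the OAS family make the oligoadenylate that activates RNase L. Of the 5 measured members of the family Oas2 rose between the tumors. Oas2 read 7.48, 6.34, 6.71 and 6.85 in Dnmt3a-deficient tumors, against 5.42, 6.13, 5.79, 5.91 and 5.84 in control tumors and 6.76, 6.87 and 6.37 in normal thymocytes. The Dnmt3a-deficient tumors overlapped with the normal arrays and lay above every control tumor. The log2 difference was 1.03 (SE 0.21, adjusted p = 0.0477) between the tumors and -0.85 (SE 0.23, adjusted p = 0.0169) for control tumors against normal. Oas3, its neighbour on chromosome 5, read 6.65, 6.67, 5.96 and 6.30 in Dnmt3a-deficient tumors, against 5.62, 5.44, 5.11, 6.12 and 6.03 in control tumors and 7.14, 7.06 and 6.97 in normal thymocytes. It fell in both tumor groups, by 0.66 in Dnmt3a-deficient and by 1.40 in control tumors on the log2 scale, and the tumors overlapped. Oasl2, whose protein has both synthetase and ubiquitin-like domains, read 7.04, 7.14, 6.85 and 6.27 in Dnmt3a-deficient tumors, against 6.17, 6.08, 6.12, 6.10 and 5.98 in control tumors and 7.10, 7.06 and 7.06 in normal thymocytes. Control tumors lay together below the rest and fell against normal, by 0.98 on the log2 scale (adjusted p = 0.00101). Between the tumors the difference was 0.73 (SE 0.16, adjusted p = 0.0539), which just missed the threshold. Oasl1 and Oas1a were not called in any comparison. Oasl1 was at 7.05 to 7.94 in Dnmt3a-deficient tumors, 6.93 to 7.07 in control tumors and 7.21 to 8.12 in normal thymocytes. Oas1a was at 5.93 to 6.86 in Dnmt3a-deficient tumors, 5.78 to 6.71 in control tumors and 6.13 to 7.11 in normal thymocytes, and near-identical paralogs in its gene cluster make its reading uncertain.

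The IFIT proteins bind viral RNA ends and block their translation. Ifit1 read 5.89, 5.53, 5.65 and 6.09 in Dnmt3a-deficient tumors, against 5.26, 5.17, 4.31, 4.73 and 4.40 in control tumors and 5.08, 4.33 and 5.05 in normal thymocytes. Each Dnmt3a-deficient tumor was above each control tumor and each normal array, whereas the control tumors overlapped with normal. It rose against normal thymocytes, with a log2 difference of 0.97 (SE 0.26, adjusted p = 0.0109), while that between tumors was 1.02 (SE 0.23, adjusted p = 0.061) and that of control tumors was -0.04 (SE 0.25, adjusted p = 0.922). Ifit3, which stabilises IFIT1 on RNA in human cells, was at 5.57 to 5.96 in Dnmt3a-deficient tumors, 4.68 to 5.49 in control tumors and 5.29 to 5.78 in normal thymocytes. Its tumor groups did not overlap, and the difference between them was 0.68 (SE 0.17, adjusted p = 0.0772). Ifit2 did not share this order, at 7.17, 6.76, 6.34 and 7.11 in Dnmt3a-deficient tumors, against 7.44, 7.35, 6.36, 6.18 and 7.34 in control tumors and 6.14, 5.93 and 6.42 in normal thymocytes. Control tumors 1, 2 and 5 were the highest arrays of all, and the difference between tumor groups was -0.09 (SE 0.28, adjusted p = 0.886).

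Eif2ak2 and Adar, whose products bind double-stranded RNA, moved in opposite directions in Dnmt3a-deficient tumors. Eif2ak2, the gene of PKR, which stops translation by phosphorylating eIF2, read 6.85, 6.15, 7.16 and 7.48 in Dnmt3a-deficient tumors, against 5.37, 6.50, 5.57, 5.45 and 6.63 in control tumors and 5.42, 5.80 and 5.42 in normal thymocytes. It rose against normal thymocytes, with a log2 difference of 1.36 (SE 0.35, adjusted p = 0.0087), or 2.57-fold. Control tumors 2 and 5 were within the range of the Dnmt3a-deficient tumors and the other 3 near normal, so the difference between tumors was 1.0 (SE 0.31, adjusted p = 0.119). Adar, which edits adenosine to inosine and keeps self RNA from being sensed, read 8.69, 8.42, 8.25 and 8.51 in Dnmt3a-deficient tumors, against 8.26, 8.33, 8.65, 8.52 and 8.59 in control tumors and 9.50, 9.52 and 9.31 in normal thymocytes. All tumors were below all normal arrays and the tumor groups were level, with a difference of -0.0017 (SE 0.13). Against normal thymocytes it was -0.97 (SE 0.15, adjusted p = 0.000234) in Dnmt3a-deficient and -0.97 (SE 0.14, adjusted p = 0.000256) in control tumors.

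Of the 3 GTPases measured, Irgm1 rose between the tumors. Irgm1 encodes an immunity-related GTPase that guards membranes and autophagy in mouse cells and, as printed above, carries 2 overlapping ISRE cores just before its start. It read 8.21, 7.43, 7.06 and 8.32 in Dnmt3a-deficient tumors, against 6.52, 6.15, 5.52, 6.09 and 6.53 in control tumors and 7.18, 7.26 and 7.39 in normal thymocytes. Dnmt3a-deficient tumors 1 and 4 were the highest of all arrays, tumors 2 and 3 lay around the normal level, and all control tumors were below every other array. The log2 difference was 1.59 (SE 0.27, adjusted p = 0.0221) between the tumors, 3.02-fold, and -1.12 (SE 0.29, adjusted p = 0.0129) for control tumors against normal. Mx1, a dynamin-like GTPase that traps viral particles, was at 4.96 to 5.54 in Dnmt3a-deficient tumors, 4.66 to 5.0 in control tumors and 5.02 to 5.35 in normal thymocytes and was not called. Mx2 was not called either, at 4.29 to 6.14 in Dnmt3a-deficient tumors, 4.04 to 4.90 in control tumors and 4.94 to 5.45 in normal thymocytes.

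Rsad2 and Cmpk2 are neighbours on chromosome 12, and their proteins work on one substrate: CMPK2 makes CTP precursors in mitochondria and viperin, the product of Rsad2, turns CTP into a chain terminator of viral polymerases. Rsad2 read 6.84, 6.31, 6.84 and 6.87 in Dnmt3a-deficient tumors, against 6.23, 5.91, 5.69, 5.70 and 5.74 in control tumors and 6.16, 5.84 and 5.80 in normal thymocytes. The Dnmt3a-deficient tumors were above all other arrays, with tumor 2 the lowest of them. Rsad2 rose against control tumors, 0.86 (SE 0.16, adjusted p = 0.0353), and against normal thymocytes, 0.78 (SE 0.18, adjusted p = 0.00491), as log2 differences. Cmpk2 read 6.36, 5.95, 6.82 and 6.54 in Dnmt3a-deficient tumors, against 5.35, 5.53, 5.44, 5.21 and 5.25 in control tumors and 5.71, 5.43 and 6.22 in normal thymocytes. It was above every control tumor in each Dnmt3a-deficient tumor, and normal array 3 reached into their range. Its log2 difference was 1.07 (SE 0.19, adjusted p = 0.0294) against control tumors and 0.64 (SE 0.22, adjusted p = 0.0333) against normal thymocytes. Control tumors did not pass the test against normal for either gene (-0.08 and -0.43).

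The PARP group adds ADP-ribose to proteins. Parp14, a mono-ADP-ribosyltransferase, read 7.59, 7.30, 7.19 and 7.43 in Dnmt3a-deficient tumors, against 6.34, 6.56, 5.81, 6.07 and 6.19 in control tumors and 6.66, 6.29 and 6.93 in normal thymocytes. The lowest Dnmt3a-deficient tumor was above the highest array of both other groups. Its log2 difference was 1.18 (SE 0.17, adjusted p = 0.0144) against control tumors, 2.27-fold, and 0.75 (SE 0.20, adjusted p = 0.00933) against normal thymocytes. Parp12, another enzyme of that kind, read 7.88, 6.89, 6.73 and 7.99 in Dnmt3a-deficient tumors, against 6.56, 6.50, 5.79, 6.08 and 5.86 in control tumors and 7.14, 7.10 and 6.96 in normal thymocytes. Tumors 1 and 4 of the Dnmt3a-deficient group were the highest, and all control tumors were below all other arrays. The difference between tumors was 1.22 (SE 0.27, adjusted p = 0.0551), and control tumors fell against normal, by 0.91 on the log2 scale (adjusted p = 0.0353). Parp9 and Dtx3l, which overlap on chromosome 16 and encode the partners of a ubiquitin ligase complex, were not called. Parp9 was at 7.09 to 7.65 in Dnmt3a-deficient tumors, 6.70 to 7.24 in control tumors and 7.21 to 7.70 in normal thymocytes. Dtx3l was at 8.17 to 8.88 in Dnmt3a-deficient tumors, 6.93 to 8.55 in control tumors and 8.04 to 8.20 in normal thymocytes, and its control tumors split like those of Ddx58, with tumors 1 and 2 above the others.

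**Figure D4:**
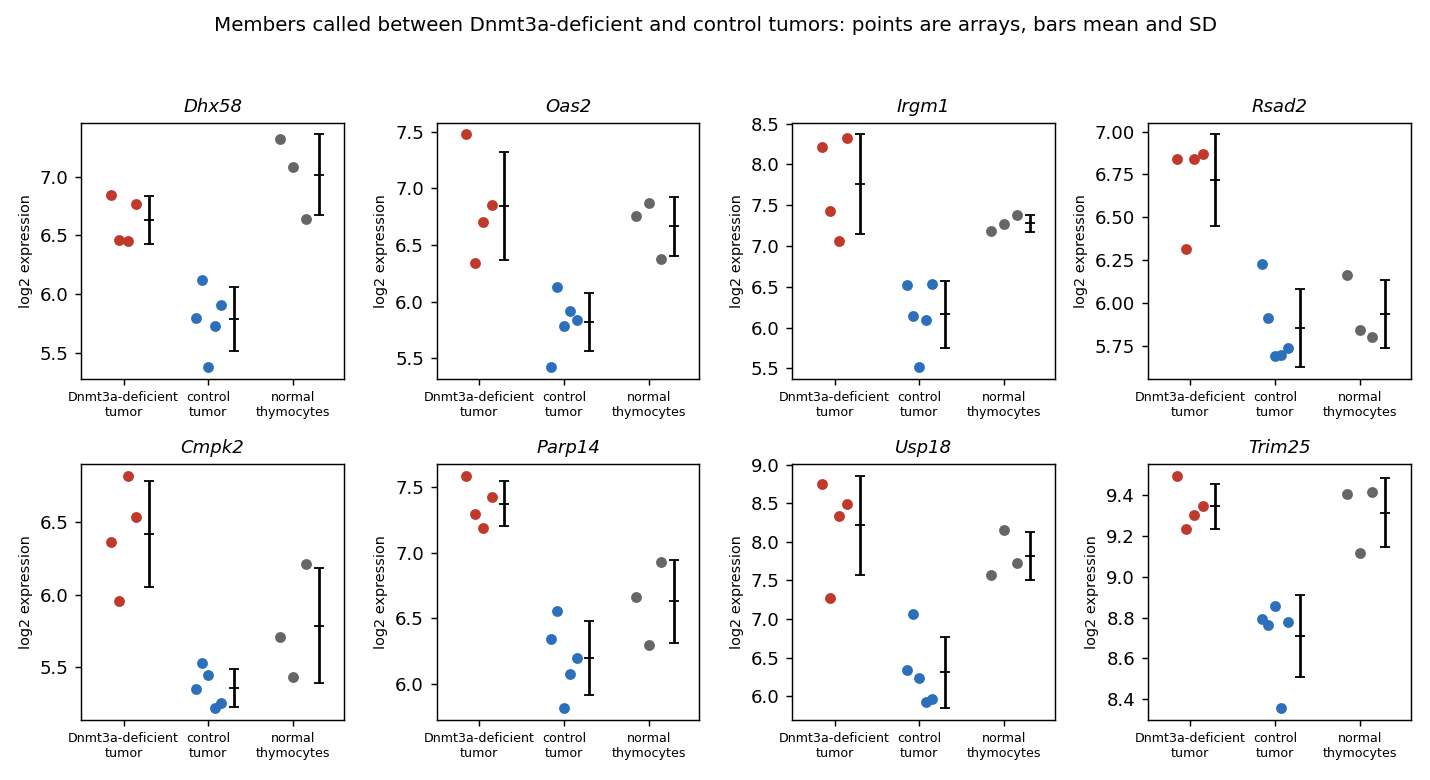
Log2 expression of the 8 members called between Dnmt3a-deficient and control tumors; points are arrays and the bars beside them the mean and SD (n = 4 Dnmt3a-deficient tumors, 5 control tumors, 3 normal thymocyte preparations), and each panel has its own axis. In each panel all Dnmt3a-deficient tumors lie above all control tumors, and normal thymocytes lie above the control tumors for Usp18, Irgm1, Oas2, Dhx58 and Trim25.

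Usp18 had the largest difference of any member between the tumors. Its protein strips ISG15 from other proteins and, bound to IFNAR2, shuts the receptor off, so that it ends the response that induces it. Usp18 read 8.75, 7.28, 8.34 and 8.50 in Dnmt3a-deficient tumors, against 6.35, 7.07, 6.23, 5.92 and 5.97 in control tumors and 7.57, 8.16 and 7.72 in normal thymocytes. Tumor 2 was the lowest of the Dnmt3a-deficient group, yet all 4 were above all control tumors, and 3 of them were above every normal array. The log2 difference was 1.91 (SE 0.30, adjusted p = 0.0178), or 3.75-fold, between the tumors. Against normal thymocytes it was -1.51 (SE 0.32, adjusted p = 0.00375) in control tumors and 0.40 (SE 0.34, adjusted p = 0.379) in Dnmt3a-deficient tumors. Trim25, a ubiquitin ligase that acts on RIG-I, read 9.50, 9.24, 9.30 and 9.35 in Dnmt3a-deficient tumors, against 8.80, 8.76, 8.86, 8.36 and 8.78 in control tumors and 9.41, 9.12 and 9.42 in normal thymocytes. Dnmt3a-deficient tumors overlapped with normal arrays and control tumors lay below both, with a log2 difference of 0.64 (SE 0.13, adjusted p = 0.0477) between tumors and -0.60 (SE 0.14, adjusted p = 0.00788) for control tumors against normal. Herc6, the main ligase for ISG15 in the mouse, was at 7.12 to 8.14 in Dnmt3a-deficient tumors, 5.87 to 7.47 in control tumors and 6.37 to 7.07 in normal thymocytes and was not called.

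The remaining 7 members are effectors of several kinds, and none of them was called between the tumors. Rtp4, a chaperone of membrane receptors, was the member furthest below normal. It read 7.16, 5.75, 5.98 and 6.51 in Dnmt3a-deficient tumors, against 5.05, 5.58, 5.29, 4.90 and 4.79 in control tumors and 8.35, 7.88 and 7.56 in normal thymocytes. All tumors were below all normal arrays, and the tumor groups did not overlap. The log2 difference from normal was -1.58 (SE 0.31, adjusted p = 0.00146) in Dnmt3a-deficient and -2.81 (SE 0.30, adjusted p = 2.22e-05) in control tumors, where Rtp4 was 7-fold lower, and 1.23 (SE 0.27, adjusted p = 0.0582) between the tumors. Xaf1, which promotes apoptosis by binding XIAP, read 6.60, 5.94, 5.50 and 6.49 in Dnmt3a-deficient tumors, against 4.96, 5.77, 5.26, 4.94 and 5.88 in control tumors and 6.76, 6.38 and 6.33 in normal thymocytes. Control tumors fell, by 1.13 on the log2 scale (adjusted p = 0.00953), while Dnmt3a-deficient tumors differed from normal by -0.36 (adjusted p = 0.358).

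Samd9l, a growth-restraining antiviral factor, was the member that rose in both tumor groups. It read 7.82, 7.34, 6.51 and 7.04 in Dnmt3a-deficient tumors, against 7.52, 8.23, 6.44, 6.31 and 7.44 in control tumors and 6.0, 4.63 and 6.64 in normal thymocytes. The normal arrays were widely spread, array 2 being far below the others, and normal array 3 overlapped with both tumor groups. The log2 difference was 1.42 (SE 0.51, adjusted p = 0.0423) in Dnmt3a-deficient and 1.43 (SE 0.49, adjusted p = 0.0478) in control tumors, and -0.0082 (SE 0.45) between them. The call in control tumors held in 9 of 18 alternative fits and that in Dnmt3a-deficient tumors in 9 of 15. Without normal array 2 the differences were 0.86 in Dnmt3a-deficient and 0.87 in control tumors, and neither passed (highest adjusted p = 0.223 and 0.266).

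Bst2, the gene of tetherin, which holds budding virus at the cell surface, read 8.69, 7.75, 9.20 and 8.84 in Dnmt3a-deficient tumors, against 7.14, 8.01, 7.63, 7.15 and 7.44 in control tumors and 7.67, 7.59 and 7.74 in normal thymocytes. Dnmt3a-deficient tumors 1, 3 and 4 were above every other array, and tumor 2 was within the control range. It rose against normal thymocytes, 0.95 (SE 0.29, adjusted p = 0.022), and differed by 1.15 (SE 0.26, adjusted p = 0.061) between tumors, as log2 differences. Tor3a, a torsin ATPase of the endoplasmic reticulum, read 7.29, 7.18, 7.25 and 7.04 in Dnmt3a-deficient tumors, against 6.94, 6.74, 6.35, 6.56 and 6.19 in control tumors and 6.47, 6.53 and 6.44 in normal thymocytes. All Dnmt3a-deficient tumors were above all other arrays, with a log2 difference of 0.71 (SE 0.17, adjusted p = 0.00572) from normal and 0.63 (SE 0.15, adjusted p = 0.0717) from control tumors. Ifi35, a leucine-zipper protein that regulates innate signalling, was at 7.54 to 7.77 in Dnmt3a-deficient tumors, 6.92 to 7.82 in control tumors and 7.67 to 8.29 in normal thymocytes. Control tumors fell against normal, by 0.80 on the log2 scale (adjusted p = 0.011). Lgals3bp, a secreted glycoprotein that binds galectins, was at 9.83 to 10.33 in Dnmt3a-deficient tumors, 8.40 to 10.21 in control tumors and 9.95 to 10.29 in normal thymocytes and was not called.

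Upstream genes of the pathway were read in the same fit, in which 0.59% of all genes rose and 0.228% fell between the tumors. None of the 16 interferon genes measured was called between the tumors by limma, and 1 was higher and 2 lower at an unadjusted p below 0.05. Ifnb1 was at 4.58 to 4.77 in Dnmt3a-deficient tumors, 4.45 to 5.30 in control tumors and 4.73 to 5.27 in normal thymocytes. Ifng was at 5.64 to 6.58 in Dnmt3a-deficient tumors, 5.55 to 5.64 in control tumors and 5.85 to 6.26 in normal thymocytes, with Dnmt3a-deficient tumor 2 at the top. Against normal thymocytes Ifnz and Ifnl2 fell in Dnmt3a-deficient tumors (log2 differences -0.78 and -1.24) and Ifnz fell in control tumors (-0.54).

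Of the 11 receptor and kinase genes measured, 3 fell and 1 rose in Dnmt3a-deficient tumors against normal, and 3 fell and 2 rose in control tumors. Over all genes 19% fell and 18.7% rose in Dnmt3a-deficient tumors, and 11.3% fell and 13% rose in control tumors. Ifnar1 read 8.51, 8.89, 8.68 and 8.56 in Dnmt3a-deficient tumors, against 8.64, 8.71, 8.95, 8.85 and 8.45 in control tumors and 9.70, 9.86 and 9.65 in normal thymocytes. Both tumor groups fell to the same band below normal, with log2 differences of -1.08 (SE 0.15, adjusted p = 0.000119) and -1.02 (SE 0.14, adjusted p = 0.000205). Ifngr1 read 8.80, 9.01, 9.75 and 9.48 in Dnmt3a-deficient tumors, against 9.48, 9.66, 8.84, 9.11 and 8.78 in control tumors and 11.53, 11.24 and 11.32 in normal thymocytes, likewise below normal in all tumors, with differences of -2.10 (SE 0.25) in Dnmt3a-deficient and -2.19 (SE 0.24) in control tumors. Ifngr2 fell as well, by 0.59 in Dnmt3a-deficient and 1.20 in control tumors on the log2 scale. Ifnar2 was not called, at 9.42 to 9.57 in Dnmt3a-deficient tumors, 9.11 to 9.39 in control tumors and 9.08 to 9.43 in normal thymocytes. Of the kinase genes, Tyk2 rose in Dnmt3a-deficient tumors (1.21), and Jak1 (0.72) and Jak2 (0.85) rose in control tumors, and none of these was called between the tumor groups. There Il10rb, a subunit of the type III interferon receptor and of the IL-10 family receptors, rose by 0.84 (adjusted p = 0.0477). Of the 11 genes, 4 were higher and 1 lower between the tumors at an unadjusted p below 0.05 in limma, beside 12.6% and 7.58% of all genes. For 3 of the 11, among them Ifnar2, every Dnmt3a-deficient tumor lay above every control tumor, beside 3.8% of all genes.

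Genes that lead to interferon production, such as Tlr7, Mavs and Tbk1, gave 4 that rose and 1 that fell of 16 measured in Dnmt3a-deficient tumors against normal, beside 18.7% and 19% of all genes. Tlr7 rose by 1.10, Traf6 by 1.01, Mavs by 0.81 and Tbk1 by 0.56 on the log2 scale, and Ticam1 fell by 0.70. In control tumors Ticam1 fell by 0.47 and Irf3 fell by 0.52, and no gene rose. Between the tumors limma called 0 of these 16, with 4 higher and 1 lower at an unadjusted p below 0.05. Of 18 inhibitors of the response, 4 rose and 5 fell in Dnmt3a-deficient tumors and 4 rose and 4 fell in control tumors against normal. In Dnmt3a-deficient tumors that is close to the 18.7% and 19% of all genes, and in control tumors 13% of all genes rose and 11.3% fell. The phosphatase gene Ptpn2 rose in both, by 2.24 and 2.01, and Socs1 fell in Dnmt3a-deficient tumors by 1.11. Limma called 0 of the 18 between tumors, with 4 higher and 1 lower at an unadjusted p below 0.05.

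A wider list of interferon-induced genes, 39 of 48 measured, was read in the same way. Of the 39, 30 were higher in Dnmt3a-deficient than in control tumors and the median log2 difference was 0.33. The 3 that rose were Epsti1 (1.41 (SE 0.23, adjusted p = 0.0193)), Slfn8 (1.27 (SE 0.24, adjusted p = 0.0376)) and Znfx1 (0.72 (SE 0.15, adjusted p = 0.0477)). None fell, and at an unadjusted p below 0.05 there were 14 higher (12.6% of all genes) and 1 lower (7.58%). Epsti1 read 7.81, 7.72, 7.14 and 7.70 in Dnmt3a-deficient tumors, against 6.35, 6.73, 5.99, 5.69 and 6.13 in control tumors and 5.93, 5.56 and 6.38 in normal thymocytes, so that Dnmt3a-deficient tumors were above both other groups. Against normal thymocytes 6 rose and 10 fell in Dnmt3a-deficient tumors, and 2 rose and 16 fell in control tumors. Beside them 18.7% of all genes rose and 19% fell in Dnmt3a-deficient tumors, and 13% rose and 11.3% fell in control tumors. The largest of these were Pnpt1, an RNA exonuclease of mitochondria, at 3.14 in Dnmt3a-deficient and 2.13 in control tumors, and Slfn2, a schlafen gene tied to T-cell quiescence, at -2.18 and -2.31.

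**Figure D5:**
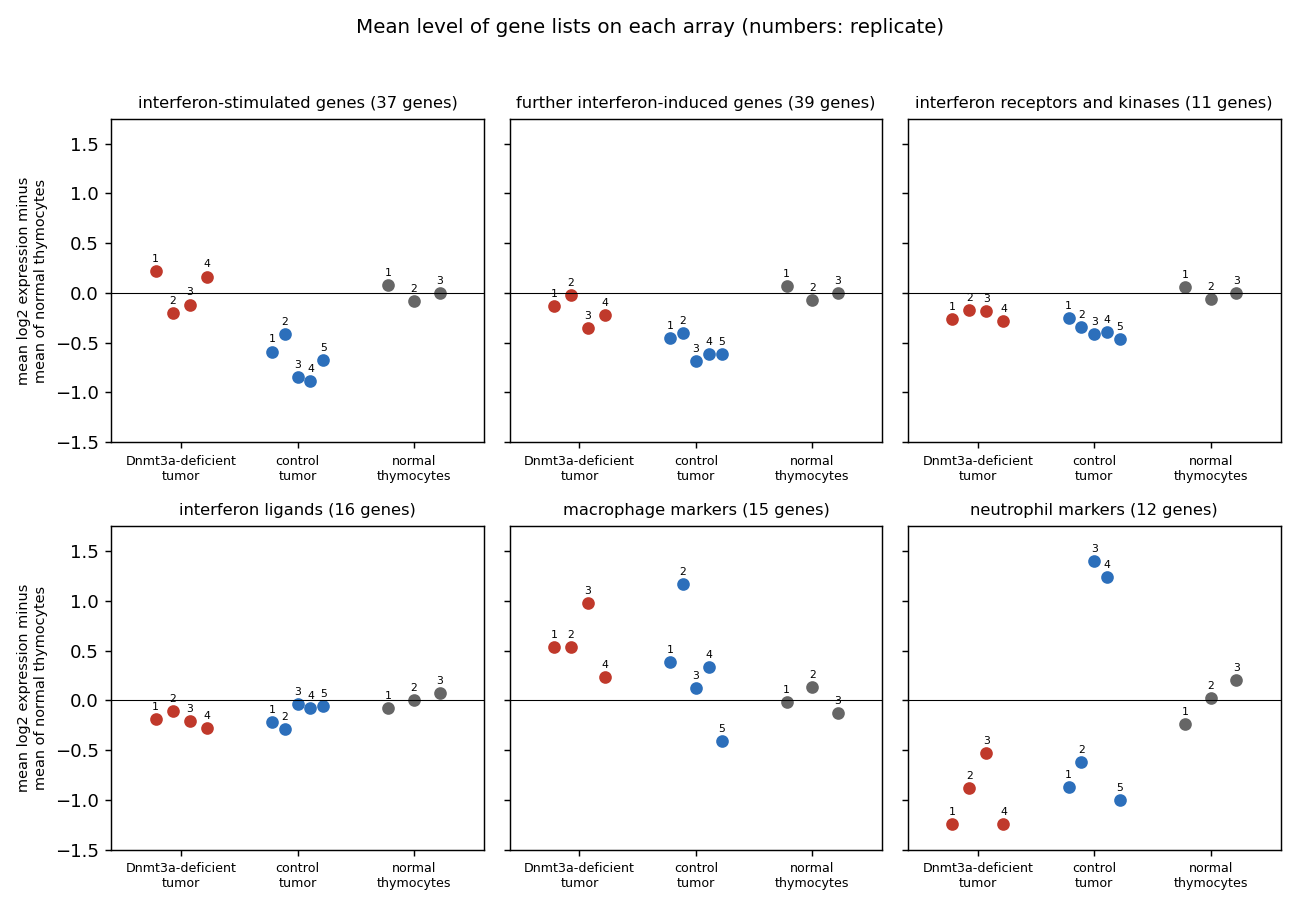
Mean log2 expression of 6 gene lists on each array, as the difference from the mean of normal thymocytes; points are arrays and small numbers the replicate. Interferon-stimulated genes run from -0.21 to 0.22 in Dnmt3a-deficient tumors and from -0.89 to -0.42 in control tumors. The tumor groups overlap for the means of the ligand list and of the receptor and kinase list, and neutrophil markers are highest in control tumors 3 and 4.

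Markers of other cells were read beside these results. The 12 neutrophil markers measured averaged 5.36 to 6.07 per array in Dnmt3a-deficient tumors, 5.60 to 8.0 in control tumors and 6.37 to 6.81 in normal thymocytes. All 12 had a lower mean in Dnmt3a-deficient than in control tumors, and limma called 0, with 4 lower and 0 higher at an unadjusted p below 0.05. Control tumors 3 and 4, the highest for neutrophil markers, were also the lowest for the members (-0.85 and -0.89). With both left out the members' median difference between tumors was 0.57, against 0.68 with all arrays.

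Macrophages respond to interferon strongly, and their 15 markers averaged 6.59 to 7.33 per array in Dnmt3a-deficient tumors, 5.94 to 7.52 in control tumors and 6.23 to 6.49 in normal thymocytes. The tumor groups overlapped and limma called 0 of the 15 between them, with 1 higher and 1 lower at an unadjusted p below 0.05. Against normal thymocytes 3 of the 15 (Adgre1, Mertk and Itgam) rose in Dnmt3a-deficient tumors, beside 18.7% of all genes. In control tumors 1 of the 15 (Itgam) rose, beside 13% of all genes. Among 8 plasmacytoid dendritic cell markers 4 had a higher and 4 a lower mean in Dnmt3a-deficient than in control tumors. Their log2 differences ran from -1.51 to 1.37. Limma called only Lair1 between the tumors (1.37 (SE 0.29, adjusted p = 0.0491)), with 2 higher and 1 lower at an unadjusted p below 0.05. Siglech, a defining marker, was at 5.54 to 6.09 in Dnmt3a-deficient tumors, 5.49 to 6.39 in control tumors and 5.77 to 6.11 in normal thymocytes. That list holds Bst2, a member. Dendritic and NK cell lists of 10 genes each had 0 genes called between the tumors by limma (1 higher and 0 lower, and 1 higher and 1 lower, at an unadjusted p below 0.05). Among the other lists Cd79b (1.63) was the only B cell marker of 9 called between the tumors, and Cldn4 (1.38) the only thymic epithelium marker of 10. In Dnmt3a-deficient tumors 4 of the 9 B cell markers had a higher and 5 a lower mean than in control tumors (median difference -0.14). Of the 10 thymic epithelium markers 7 were higher and 3 lower (median 0.04). In limma 1 of each list was higher and 0 lower at an unadjusted p below 0.05. The test called 0 erythroid and 0 fibroblast and endothelium genes (1 higher and 0 lower, and 0 higher and 1 lower, at an unadjusted p below 0.05). The part of these cells in the members' differences was not tested.

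Across arrays the members moved with one another more than genes in general, as a description over arrays that share groups. The mean correlation over pairs of members was 0.42 over all 12 arrays, against 0.009 for all genes, and 0.52 over the 9 tumors. After group means were removed it was 0.19, against 0.005 for all genes. Over the 9 tumors, with both tumor groups pooled and their difference left in, Parp14 (r 0.97), Usp18 (0.96) and Dhx58 (0.96) followed the mean of the other members most closely. Adar (-0.01), Ifit2 (0.25), Oas1a (0.30), Samd9l (0.32) and Mx2 (0.33) followed it least. With group means removed, over all 12 arrays, the order changed. Parp12 (0.83), Rtp4 (0.77) and Ifit2 (0.74) then followed the other members most closely and Oasl2 (-0.315) least. Samd9l was at 0.63 and Adar at -0.02.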

How the data were processed

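Log2 expression values per probe set were used as the authors deposited them; per the submitters' processing notes, RMA and Affymetrix Expression Console were used, of which no version is stated. Per the labels' protocols, Trizol and then a Qiagen column gave the thymus RNA, which an Ambion kit amplified for biotin labelling. RMA usually equalises the quantiles of arrays, while those deposited differed between arrays, and whether all arrays were normalized in 1 run is not stated. Of 23858 probe sets, 20870 carry 1 gene symbol, 1453 several and 1535 none in the platform annotation. The single-symbol set with the highest mean was kept per gene (849 genes had several), which left 19309 genes.

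Groups came from the sample titles. One limma model (version 3.58.1, R 4.3.3) with 3 group means was fitted on 12 arrays (9 residual and 4.17 prior degrees of freedom), with two-sided moderated tests of 3 contrasts and Benjamini-Hochberg adjustment over all genes at 0.05. Precision is limited by the number of arrays. Simulated data served to test the fit. All measured members are named. Values of every array are given for members called with at least a 2-fold difference, those called between tumors and the member of smallest p in each role; other lists name up to 6 called genes. The members and all lists, including those of other pathway genes and cell type markers, were chosen with earlier results of these data known. Promoters are RefSeq's for GRCm38.p6. Dnmt3a-deficient tumor 1 and control tumor 1 deviated together to some degree (correlation 0.34). The other same-numbered arrays did not (-0.13 to 0.09). The labels do not say that numbers pair samples, so numbers were not taken as pairs. Alternatives were other scalings, a filter on dim genes, the mean of probe sets, array weights, a replicate block, 2-group fits and arrays left out.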

Additional observations from a re-analysis of the deposited data

Results flagged for a closer look

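In 5 of 74 groups of 4 or 5 arrays, 1 array of a member lay far from the rest of its group by Dixon's criterion, where chance gives about 1 in 20. Oasl1 was 7.94 in Dnmt3a-deficient tumor 1, against 7.05 to 7.16 in the other Dnmt3a-deficient tumors. Rsad2 was 6.31 in Dnmt3a-deficient tumor 2, against 6.84 to 6.87 in the others of that group. Among control tumors, Parp9 was 6.70 in tumor 5 against 7.17 to 7.24, Trim25 was 8.36 in tumor 4 against 8.76 to 8.86, and Ifi35 was 7.82 in tumor 2 against 6.92 to 7.13.

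For 8 members the signed log2 difference from normal thymocytes was higher in Dnmt3a-deficient than in control tumors, by a test of the difference itself in limma. For 5 of them (Usp18, Irgm1, Oas2, Dhx58 and Trim25) the Dnmt3a-deficient tumors were the nearer to normal. This difference of differences equals the difference between the tumor groups, and on the log2 scale it was 1.91 for Usp18, 1.59 for Irgm1, 1.18 for Parp14, 1.07 for Cmpk2, 1.03 for Oas2, 0.86 for Rsad2, 0.84 for Dhx58 and 0.64 for Trim25. How far these calls depend on single arrays is given with the results.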

How the results depend on the processing

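The direction between tumors was the steadiest result: no member result changed sign among those called, and the members' median log2 difference between Dnmt3a-deficient and control tumors ran from 0.57 to 0.77 over the alternatives, 0.65 to 0.76 when 1 array was left out. The number that rose between tumors was 8, where 0.59% of all genes were called higher. It moved to 16 when each array was centred on its median (1.71%), 24 with array weights (11.7%) and 3 with the replicate block (0.29%). It was 0 in the fit of the 2 groups alone (0%), 21 without control tumors 1 and 2 (16.1%) and 0 without control tumors 3 and 4 (0.0207%). Leaving out 1 array gave 1 to 18 (0.057% to 5.71%). The number that fell was 0 throughout. Against normal thymocytes, Dnmt3a-deficient tumors had 4 members that rose without the dimmest 50% of genes (of 23 left, beside 35.6% of the genes left). With 1 array left out, 3 to 8 rose (15.5% to 17.9% of all genes) and 6 to 7 fell (12.6% to 17%). In control tumors the 1 that rose became 0 with array weights, with the replicate block, in the fit of 2 groups and without control tumors 1 and 2. It became 2 without control tumors 3 and 4. With 1 array left out, 0 to 2 rose (9.82% to 14.1% of all genes) and 14 to 19 fell (6.74% to 12.2%). The replicate block changed no other count by over 1.5 times. Removing dim genes moved the median of all genes from -0.10 to 0.20 in Dnmt3a-deficient tumors minus normal, and the members' median there changed sign among scalings (-0.13 after a second quantile normalization, 0.11 after median centring). Among values of single members under the alternatives, 1673 kept their side of the threshold, 94 gained a call and 115 lost it. With 3 to 5 arrays a group and no known batch, causes of these shifts were not tested.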

Other observations

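Probe sets that name 2 genes are kept apart from the members. The set shared by Irgm2 and Igtp, both immunity-related GTPases, read 6.82, 7.20, 5.87 and 6.48 in Dnmt3a-deficient tumors, against 5.97, 5.69, 5.99, 5.95 and 6.01 in control tumors and 7.66, 7.81 and 7.63 in normal thymocytes. Both tumor groups fell against normal, with log2 differences of -1.11 in Dnmt3a-deficient (SE 0.24, adjusted p = 0.00287) and -1.78 in control tumors (SE 0.23, adjusted p = 9.98e-05). Between the tumors the difference was 0.67 (SE 0.21, adjusted p = 0.121). The set shared by Oas1a and Oas1g read 6.42, 5.86, 6.17 and 6.59 in Dnmt3a-deficient tumors, against 5.71, 5.67, 5.47, 6.11 and 5.98 in control tumors and 6.38, 6.5 and 6.42 in normal thymocytes. It fell in control tumors (-0.64, SE 0.18, adjusted p = 0.0203) and differed by 0.47 between the tumors (SE 0.17, adjusted p = 0.152).

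Genes that maintain DNA methylation or silence endogenous retroviruses were read in the same fit. Of the 7, 3 rose and 3 fell in Dnmt3a-deficient tumors against normal, beside 18.7% and 19% of all genes. In control tumors 2 rose and 2 fell, beside 13% and 11.3% of all genes. Not all of these are named here. Hells, a chromatin remodeller needed for DNA methylation, rose in both tumor groups against normal, by 2.32 in Dnmt3a-deficient and 2.43 in control tumors on the log2 scale. Setdb1, a histone methyltransferase that silences retroviruses, rose in both as well, by 1.09 and 0.64 in that order of groups. Trim28, its partner, fell by 0.51 in Dnmt3a-deficient tumors. Apart from Dnmt3a, none of these 7 genes was called between the tumors.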
